A study of Mus musculus with 4 samples.

Results

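The homozygous Fbn1 mutant mitral valve was compared with the wild-type valve on 1 array each. The members of this comparison were the probe sets that are not controls and are annotated to 1 gene. They numbered 20380 of the 22690 probe sets on the array and covered 12393 genes. The wild-type array (WT) came from Fbn1 +/+ mice and the homozygous array (Hom) from Fbn1 C1039G/C1039G mice. Heterozygous valve of the genotype Fbn1 C1039/+ was on 2 further arrays (Het replicates 1 and 2), whose label leaves out the substituted residue. Total RNA of mouse mitral valve was measured on every array. Strain, age, sex and the number of animals behind an array were not given in the sources used here.

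Fibrillin-1 is the large glycoprotein of extracellular microfibrils, which carry elastin in elastic fibres and bind the latent complexes of transforming growth factor beta (TGF-beta). Mutations in its gene cause Marfan syndrome, in which the mitral valve leaflets often thicken, lengthen and prolapse. The C1039G allele replaces a cysteine of the protein and is a widely used mouse model of that disease. A mitral leaflet is built by interstitial cells in layers of collagen, proteoglycan and elastic fibre under an endothelial sheet, and is attached to heart muscle and tendinous cords. The level of Fbn1 was not analysed here, since no member probe set is annotated to it alone.

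Values are intensities on a linear scale, with the arrays centred to equal medians, and differences are Hom minus WT on the log2 scale, where 1 is a 2-fold difference. Where 4 values are given, the order is WT, Het replicate 1, Het replicate 2, Hom. Values below 18.95, the 25th percentile, were raised to that floor. A probe set was read when its mean log2 value over the 4 arrays was at or above the median over probe sets (60.4 in intensity), and the brightest of these stood for its gene. This kept 10396 probe sets and 7317 genes. The Het arrays count in the mean used, so a gene below 60.4 in WT could pass through its Het values. Genes given below with WT under this limit include Fcer1g, Clec1b, Gp9, Aldh1a3, Wnt7a, Jag2, Igfbp6, Actg2 and Atp1b2. WT and Hom have no replicates, so no difference was tested, and precision is limited by there being 1 array a side. The Het pair, the only arrays with a shared genotype label, had an SD of 0.57 across genes, against 0.32 for Hom minus WT. The median of Het replicate 2 minus Het replicate 1 was -1.13 for heart muscle sarcomere genes and 1.01 for macrophage and myeloid genes. Over all genes it was 0.19. Whether the tissue on the 2 Het arrays was alike was not tested, so their SD is not given as replicate noise.

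The valve arrays carried the transcripts of leaflet tissue on both sides. The 21 interstitial and fibroblast markers that were read had a geometric mean intensity of 993 in WT and 878 in Hom. The 28 sarcomere genes of heart muscle had 929 in WT and 946 in Hom, so both arrays also held muscle transcripts at a high level. The 27 endothelial markers averaged 372 and 348, and the 25 macrophage and myeloid markers 189 and 191. In bulk tissue, fewer cells of a type and less RNA per cell cannot be told apart.

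Few genes differed by much between Hom and WT. At least 2-fold differences were seen at 66 genes (0.902% of those read), of which 32 (0.437%) were higher and 34 (0.465%) lower in Hom. A limit of 1.5-fold was passed by 240 genes (3.28%) upward and 238 (3.25%) downward, 478 (6.53%) in all. Counting any difference, 46.7% of genes were higher in Hom and 53.3% lower. The Het arrays, in the same count, were at least 2-fold apart at 677 genes (9.25%). Just inside the 2-fold limit lay Socs3 (1.006) and Gabpb1 (-1.001), and just outside it Bphl (0.999) and Ica1 (-0.999).

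The differences were concentrated among dim genes. With the genes split by mean level into 5 classes of equal size, 39 genes of the dimmest class (2.66%) and 3 of the brightest (0.205%) were at least 2-fold apart. The SD of the differences was 0.43 in the dimmest class and 0.24 in the brightest, whereas the Het pair had 0.61 and 0.57. Bright genes also tended to read lower in Hom. Among the 1214 genes with a mean of at least 500, the median difference was -0.07 and 36.5% were higher. Among the 70 genes of at least 4000 the median was -0.21 and 17.1% were higher. After quantile normalization, which gives the arrays 1 common distribution, these medians were 0.02 and 0.03. Gene lists with a geometric mean of at least 500 in WT are therefore given below with their quantile-normalized median as well. Over all genes, that scaling gave a median of 0.01 and 51.6% higher in Hom, beside which its list values are to be read.

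**Figure D1:**
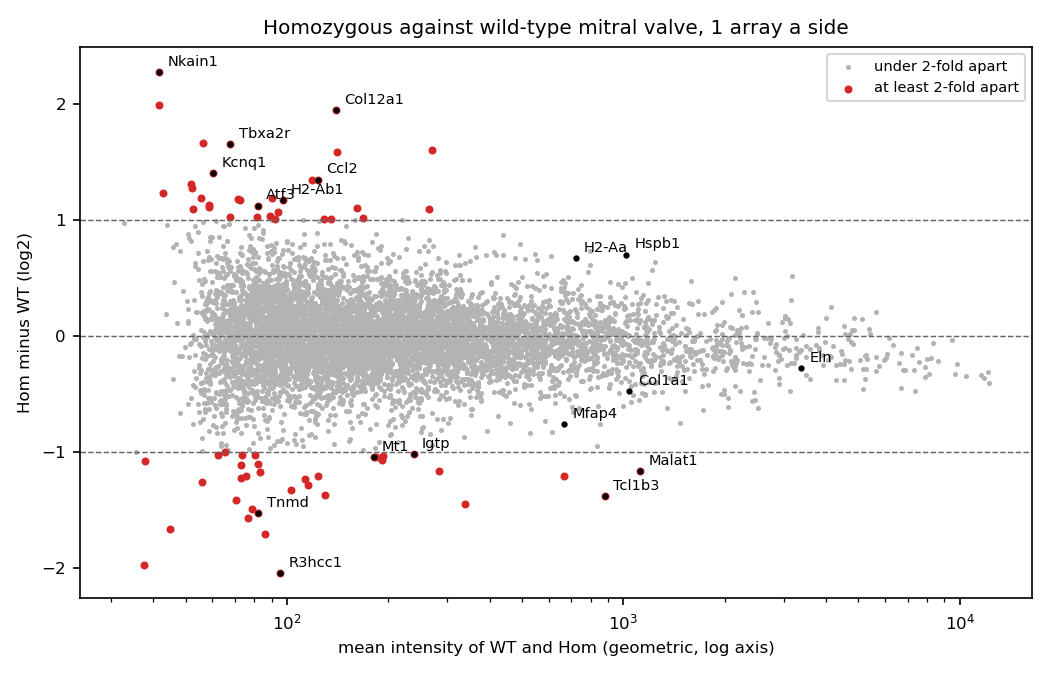
Each point is 1 of 7317 genes, with the geometric mean intensity of WT and Hom on a logarithmic horizontal axis and the Hom minus WT difference (log2) on the vertical axis. Red points are the 66 genes at least 2-fold apart, which lie mostly at low intensity, and the cloud bends below 0 at its bright end.

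Probe sets of the same gene offered a check on the probes, though not on the animals, since they read 1 RNA. Of the 2172 genes with at least 2 probe sets read, 1025 (47.2%, exact 95% binomial interval 45.1 to 49.3, counting error only) had all of 1 sign, 424 (19.5%) higher and 601 (27.7%) lower. The interval takes the genes as independent, which genes read on the same arrays need not be. All probe sets were at least 1.25-fold apart in 1 direction at 91 genes (4.19%) and at least 1.5-fold at 12 (0.552%). Across the 2172 genes, the differences of the brightest and the second probe set had a Pearson correlation of 0.14, with both probe sets read on the same arrays. The sign was shared by 55.5% of these pairs. Where the brightest probe set was at least 1.5-fold but under 2-fold apart (92 genes), the second shared its sign in 57, yet reached 1.5-fold in 12. Where it was at least 2-fold apart (13 genes), the second shared its sign in 8 and reached 1.5-fold in 1. The other 53 of the 66 genes rested on a single probe set.

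**Figure D2:**
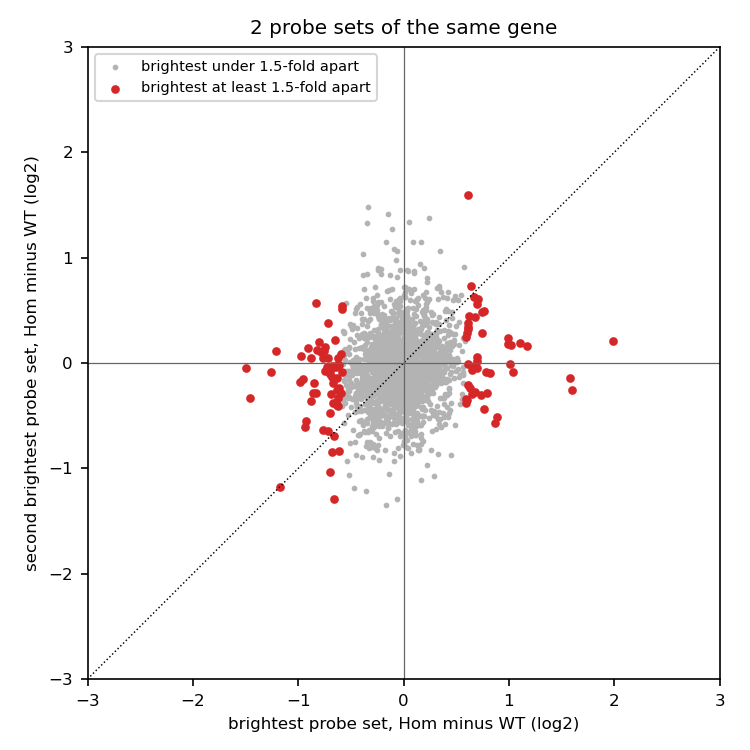
Each point is 1 of 2172 genes with several probe sets, with the Hom minus WT difference (log2) of the brightest on the horizontal axis and of the second brightest on the vertical axis. Red points have a brightest probe set at least 1.5-fold apart, and few of them lie near the dotted line of equal differences: the second probe set reached 1.5-fold the same way in 12 of the 92 under 2-fold and in 1 of the 13 beyond it.

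The genes whose probe sets agreed best included several lower in Hom. Of the 24 taken by the rule, 12 had at least 1 probe set of a type that may cross-hybridise, and Dock9 and H2-Aa had no other. Malat1, a long noncoding RNA of nuclear speckles, was lower by all 4 of its probe sets, by differences between -1.18 and -0.52. Its brightest read 1685, 2590, 185 and 748. Hom was below WT, but the Het arrays lay on both sides of that pair and far apart. Efnb2, the ephrin ligand ephrin-B2 of arterial endothelium, read 391, 375, 486 and 238, with differences of -0.71 and -0.65 by its 2 probe sets, and Hom was the lowest array. Fmo2, a flavin-containing monooxygenase, read 113, 65.2, 39.1 and 69.6, with differences of -0.70 and -1.04. Selenow, a small selenoprotein, read 2537, 1103, 2435 and 1654, with differences of -0.62 and -0.84. WT was the highest array at both genes, and Het replicate 1 read below WT at both. Further genes lower by both of their probe sets were Birc6, an inhibitor of apoptosis (-0.68 and -0.85), Dock9, an activator of Cdc42 (-0.76 and -0.63), Acyp1 (-0.66 and -0.69), the chromatin remodeller Atrx (-0.94 and -0.61) and the myosin light chain kinase Mylk (-0.54 and -0.93).

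On the other side, 12 genes were taken by the same rule as higher by every probe set. Hspb1, a small heat shock protein of muscle, read 799, 1086, 1951 and 1298 by its brighter probe set, with WT the lowest array. Its other probe set read 584, 501, 977 and 864, with Het replicate 1 lowest. The differences were 0.70 and 0.57. Fbl, the nucleolar methyltransferase fibrillarin, read 233, 301, 666 and 347, with differences of 0.57 and 0.91. WT was lowest by both of its probe sets. Oxa1l, which inserts proteins into the inner mitochondrial membrane, read 74.6, 121, 104 and 117, with differences of 0.64 and 0.74. Sppl3, an intramembrane protease of the Golgi, had differences of 0.61 and 1.59. The remaining genes were H2-Aa, described below, Lyrm2, Zfp644, Desi1, Cryz, Timm22, the RNA helicase Ddx21 and Azi2.

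Genes of the elastic fibre and microfibril were mostly a little lower in Hom. Of 20 on the list, 14 were read, 13 of them lower, with a median of -0.15 against -0.02 over all genes. After quantile normalization 10 of the 14 were lower and the median was -0.09. Mfap4, a microfibril-associated glycoprotein that binds elastin, had the lowest value at 870, 346, 275 and 512, a difference of -0.76, and was the 1 member past 1.5-fold. Eln, which encodes elastin, read 3725, 1932, 1717 and 3071, with differences of -0.28 and -0.61 by its 2 probe sets. At both genes WT was highest, and both Het arrays lay below Hom.

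The other members lay closer together. Fbn2, the second fibrillin, read 501, 455, 342 and 402, a difference of -0.32. Fbln5, a fibulin needed for elastic fibre assembly, read 1067, 722, 998 and 861, a difference of -0.31. Among the latent TGF-beta binding proteins, Ltbp1 (-0.25), Ltbp2 (-0.14) and Ltbp4 (-0.15) were lower, and Ltbp3 was the 1 member higher, by 0.23 and 0.20. Fbln2 (-0.16), Emilin1 (-0.11, with its second probe set at 0.08), Mfap5 (-0.09), Mfap2 (-0.03), Fbln1 (-0.02) and Mfap3 (-0.002) made up the rest. Fbln1, Mfap2 and Mfap3 turned above 0 after quantile normalization.

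**Figure D3:**
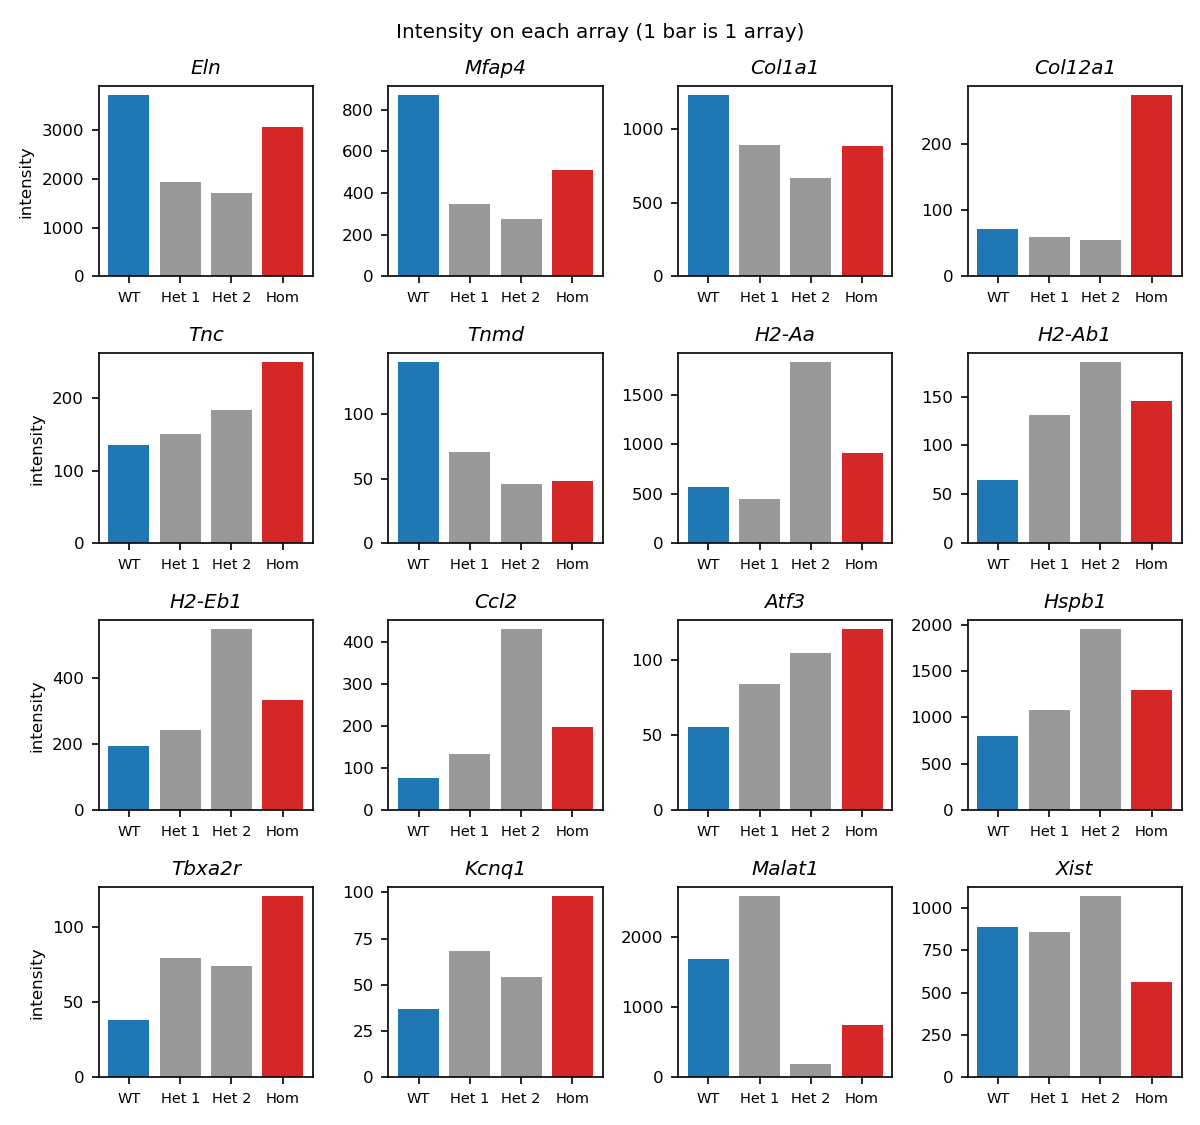
Bars give the intensity (linear scale from 0, 1 bar an array) of 16 genes, WT in blue, the Het arrays in grey and Hom in red, chosen after their values were seen. Mfap4 and Tnmd are highest in WT, Col12a1 is highest in Hom at 274, and at H2-Aa, H2-Eb1, Ccl2 and Hspb1 the highest bar is Het replicate 2.

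The collagens are given by class. Of 8 fibrillar collagens read, 6 were lower, with a median of -0.19. After quantile normalization 4 were lower and 3 higher, with a median of -0.08. Col1a1, the main chain of type I collagen, read 1228.5, 891, 668 and 884 by its brightest probe set and 1213.5, 748, 345 and 534 by the other, differences of -0.48 and -1.18. WT was highest by both. Col11a1, a minor fibrillar chain, read 171, 108, 45.7 and 111, a difference of -0.62. Col5a1 (0.06) and Col5a3 (0.03) were the 2 members above WT without that normalization.

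Col12a1 stood apart from the other collagens. It encodes a collagen found on the surface of type I fibrils in tendon and other tissue under load, and read 71, 58.9, 55.8 and 274, 3.86-fold higher in Hom than in WT. The WT and Het arrays were alike and Hom lay far above them, by 1 probe set. The fibril-associated and other collagens numbered 9 with a median of 0.04, and included Col6a2 (0.57, with its other probe set at -0.19), Col8a1 (-0.20) and Col14a1 (-0.12). Enzymes and chaperones of collagen processing were more often higher, 11 of 16, with a median of 0.12 (0.19 after quantile normalization). P4ha2, a prolyl hydroxylase subunit, read 85.3, 153, 105 and 148, a difference of 0.79, whereas the lysyl oxidase relative Loxl3 (-0.54) and the lysyl hydroxylase Plod2 (-0.53) were lower.

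Other matrix families had medians near that of all genes. The medians were 0.02 for 22 proteoglycan and hyaluronan genes, -0.04 for 22 matricellular genes, -0.03 for 17 proteases and inhibitors (0.04 after quantile normalization, with 11 higher) and -0.04 for 17 basement membrane genes. Single members lay further out. Tnc, the matricellular glycoprotein tenascin-C, read 136, 151, 184 and 250, a difference of 0.88, with Hom highest. Cd44, the hyaluronan receptor, read 255, 501, 879 and 414, a difference of 0.70. Timp1, an inhibitor of matrix metalloproteinases, read 996, 1615, 4155 and 1546, a difference of 0.63. At Cd44 and Timp1 WT was lowest and Het replicate 2 highest. Spon2 was higher by 0.85, while Acan, the large aggregating proteoglycan, was at -0.62, Thbs3 at -0.56 and Ogn, a small leucine-rich proteoglycan, at -0.49.

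Tnmd, the tendon membrane protein tenomodulin, had the largest difference of the tendon and chondro-osteogenic list, with 140, 70.5, 45.5 and 48.4. WT was 2.89-fold above Hom and both Het arrays lay near Hom. The 8 genes read from that list were split 4 and 4, with a median of -0.12 that moved to 0.02 after quantile normalization. The interstitial and fibroblast markers were lower at 18 of 21, with a median of -0.16, and at 14 of 21 with a median of -0.03 after quantile normalization. Pi16 (-0.58) and Col1a1 were lowest and Tcf21 (0.27) and Thy1 (0.23) highest.

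Genes of the TGF-beta pathway did not share a direction. Ligands, receptors and transducers were higher at 9 of 22 with a median of -0.07, and genes known to respond to TGF-beta at 14 of 26 with a median of 0.04 (15 of 26 and 0.12 after quantile normalization). Skil, which encodes SnoN, a repressor of Smad signalling that TGF-beta itself induces, read 708, 342, 676 and 396, a difference of -0.84. Hom lay near Het replicate 1, and WT near Het replicate 2. Fst, the activin antagonist follistatin, read 107 in WT and 175 in Hom, a difference of 0.71, with WT the lowest of the 4 arrays. Vegfa, the endothelial growth factor, read 170, 94, 84.6 and 103, a difference of -0.73, with WT highest.

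Other signalling families held single genes past 1.5-fold and medians near 0. In the BMP list (11 read, median -0.06) Gdf10 was at -0.83 and the BMP target Id2 at -0.79, with the other probe set of Id2 at 0.10. Id4, another target, was higher by its 3 probe sets, between 0.39 and 0.53. In the Notch list (18 read, median -0.03) the ligand Jag2, dim in WT at 39.8, was at 1.11. The receptor Notch2, which read 332, 284, 273 and 192, was at -0.79. The fringe enzyme Lfng was at -0.63. In the Wnt list (24 read, median 0.03) the ligand Wnt7a read 32.9, 92.3, 180 and 81.3, a difference of 1.31, and the secreted inhibitor Wif1 read 261 in WT and 156 in Hom, a difference of -0.74, with WT the highest of the 4 arrays. The Wnt7a value of WT was close to the floor.

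Prostaglandin and thromboxane genes were higher at 7 of 8, with a median of 0.20 (0.24 after quantile normalization). Each was read by 1 probe set. Tbxa2r, the thromboxane receptor of platelets and smooth muscle, read 38.3, 79.2, 73.9 and 120.5 and was 3.15-fold higher in Hom, with WT lowest and Hom highest of the 4 arrays. It was the 1 member past 1.5-fold. Ptges2, a prostaglandin E synthase, was at 0.49, and the phospholipase Pla2g4a, the 1 member below WT, at -0.27. Insulin-like growth factor genes were lower at 7 of 9, with a median of -0.15 that became 0.002 after quantile normalization. Htra1, a protease that cleaves their binding proteins, read 1386.5, 831, 832 and 975, with differences of -0.51 and -0.76 by its probe sets. Igfbp6, dim in WT, read 38.0, 67.0, 83.7 and 68.3, a difference of 0.85. By the brightest probe sets it was the 1 member of the list past 1.5-fold.

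**Figure D4:**
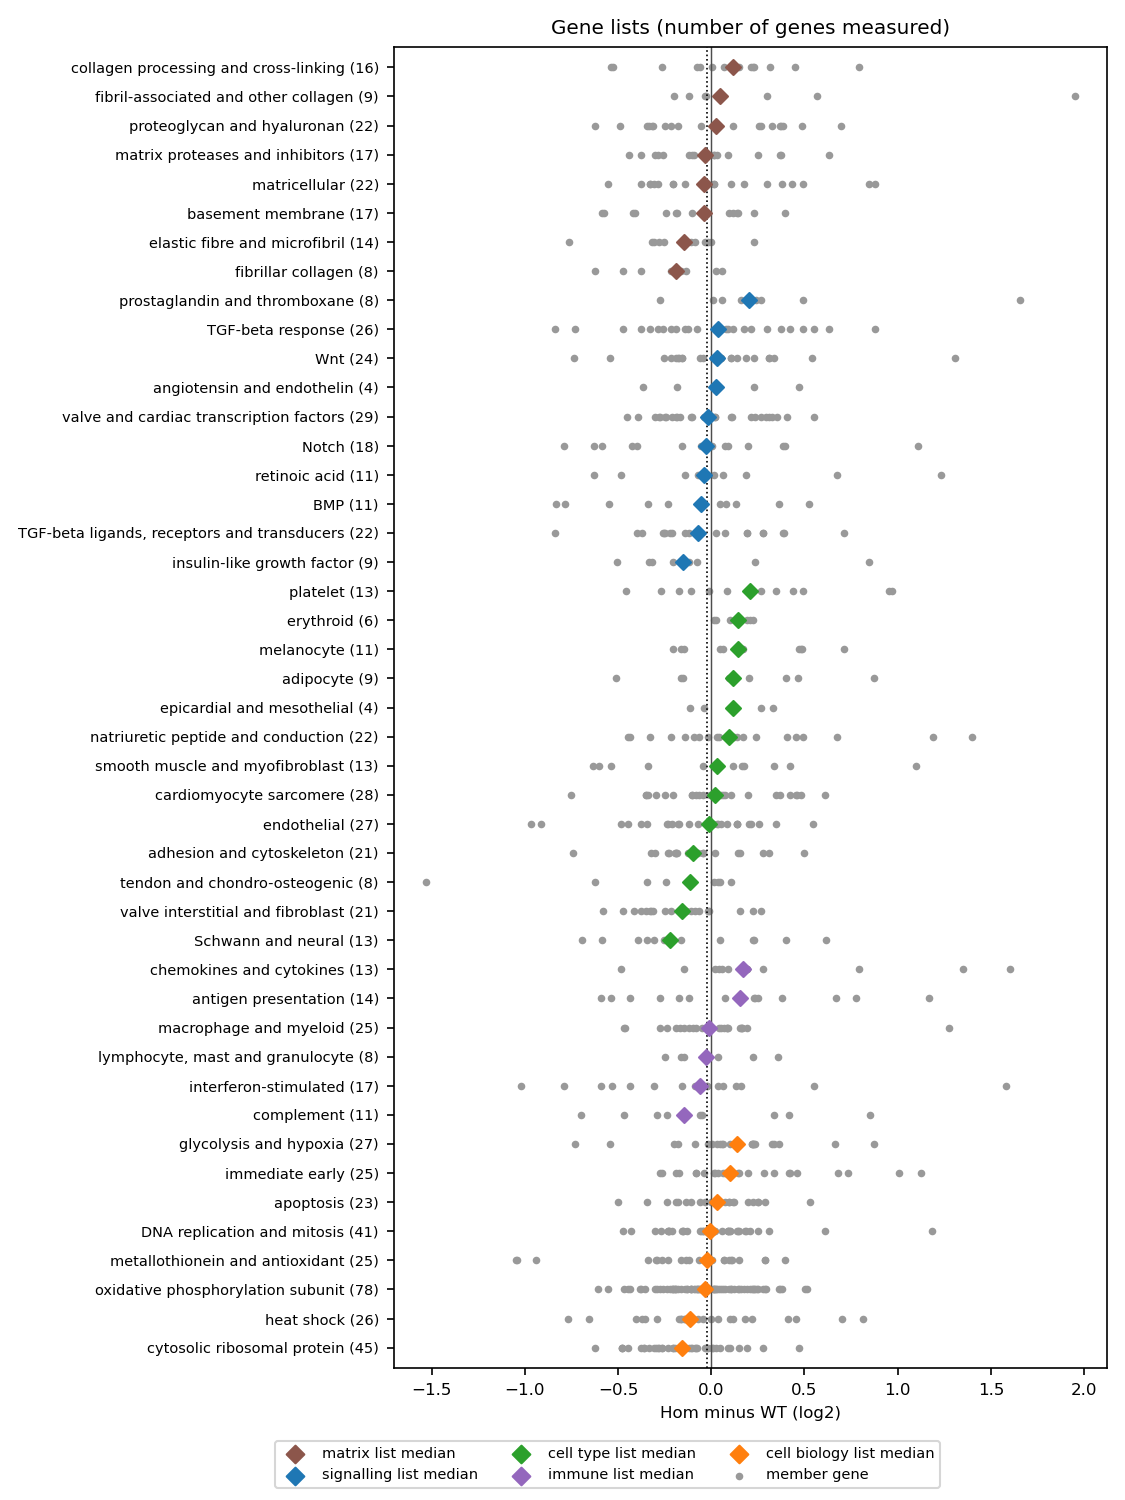
Rows are the 45 gene lists with the number of genes read. Grey points are member genes and diamonds the list medians of the Hom minus WT difference (log2), coloured by theme, with a solid line at 0 and a dotted line at the median of all genes, -0.02. Medians lie between -0.22 (Schwann and neural) and 0.21 (platelet), while members of most lists spread well beyond their median.

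The 3 class II antigen presentation chains read were higher in Hom by their brightest probe sets. These genes encode the surface proteins by which macrophages, dendritic cells and B cells show peptides to helper T cells. The stretches before the start sites of H2-Aa and H2-Eb1 are shown because both read above WT, and class II promoters are known to share elements that include an inverted CCAAT box. The 250 bases before the start are given from RefSeq on GRCm38.p6, written 5′ to 3′ along the gene, for H2-Aa at chr17:34287824-34288073 on the minus strand and for H2-Eb1 at chr17:34305617-34305866 on the plus strand. Capitals mark the string CTGATTGG.
H2-Aa: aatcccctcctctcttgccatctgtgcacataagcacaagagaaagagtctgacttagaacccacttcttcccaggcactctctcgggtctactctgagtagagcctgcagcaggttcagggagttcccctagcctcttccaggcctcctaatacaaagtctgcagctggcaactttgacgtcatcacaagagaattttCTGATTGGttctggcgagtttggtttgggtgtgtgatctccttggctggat
H2-Eb1: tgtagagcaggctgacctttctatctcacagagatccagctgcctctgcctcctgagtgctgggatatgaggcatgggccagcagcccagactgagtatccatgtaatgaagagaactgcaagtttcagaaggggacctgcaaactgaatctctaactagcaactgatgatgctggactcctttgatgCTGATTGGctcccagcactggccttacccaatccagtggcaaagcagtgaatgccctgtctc

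The string began 51 bases before the start of H2-Aa and 62 before that of H2-Eb1. It was chosen after looking for 7 strings in these windows, on both strands, and was kept because both windows held it. Of 32851 promoter windows of this length, 3.83% held CTGATTGG or its reverse complement. The shorter strings that lie inside it were in both windows too, ATTGG (the reverse complement of CCAAT, so both are 1 search) in 33.9% of all windows and GATTGG in 14.6%. AGCAAC (12.2% of all windows) and TGATGC (9.18%) were in the H2-Eb1 window only, and TGACG (17.8%) in the H2-Aa window only. A match describes these letters and is not a measured binding site.

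H2-Aa, the alpha chain of the I-A molecule, read 572, 443, 1827 and 910 by its brighter probe set, differences of 0.67 and 0.62 by its 2 probe sets. H2-Eb1, the beta chain of I-E, read 196, 245, 549 and 335, a difference of 0.77. H2-Ab1, the beta chain of I-A, read 64.7, 131, 185 and 145, a difference of 1.17, while its other probe set read 52.2, 68.4, 108 and 58.3, a difference of 0.16. Hom was above WT at each, and Het replicate 2 was the highest array. Both probe sets of H2-Aa and the brighter of H2-Ab1 are of the types that may cross-hybridise (_s_at or _x_at), and the probe set of H2-Eb1 is not. The whole antigen presentation list was higher at 8 of 14, with a median of 0.15 (0.23 after quantile normalization). Genes that prepare peptides for class I molecules lay on the other side, with the proteasome subunit Psmb8 at -0.59 and Tapbp, the peptide-loading protein tapasin, at -0.54.

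Markers of myeloid cells as a list did not differ in the same direction. The 25 macrophage and myeloid genes were higher at 12, with a median of -0.01 and the geometric means given above. Fcer1g, the Fc receptor gamma chain, was the 1 marker past 1.5-fold at 33.5, 107, 324 and 81.2, a difference of 1.28. C1qb, a complement component of macrophages, was lower by its 3 probe sets, between -0.47 and -0.21. Their part in the class II values was not tested.

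Chemokines and cytokines were higher at 11 of 13 genes, with a median of 0.17 (0.20 after quantile normalization). Ccl2, which attracts monocytes, read 77.4, 134, 430.4 and 197 and was 2.55-fold higher, with WT lowest and both Het arrays also above it. Cxcl13, which attracts B cells, read 97.6, 80.5, 63 and 169, a difference of 0.79, with Hom highest. Cklf read 155, 429, 255 and 471 by its brightest probe set (1.60), but its other 2 probe sets gave -0.26 and -0.10. Ackr3, a scavenging chemokine receptor, was lowest at -0.48.

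Interferon-stimulated genes were lower at 11 of 17, with a median of -0.06. Igtp, an interferon-induced GTPase, read 339, 152, 240 and 167, a difference of -1.02, and Ifi35 read 81.2, 53.5, 106 and 46.9, a difference of -0.79. At both, Hom was near Het replicate 1. Samhd1, a nucleotide hydrolase that restricts viruses, was at 1.58 by its brightest probe set, while its other 3 probe sets gave values between -0.84 and -0.14. Complement genes were lower at 8 of 11, with a median of -0.15, among them the regulator Cd55 (-0.70, with its other probe set at -0.11). Cd46, another regulator, went the other way. It read 46.6, 73.0, 70.2 and 84.2, a difference of 0.85, and was the 1 member past 1.5-fold upward. C3ar1 was higher by both of its probe sets (0.42 and 0.27).

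Immediate early genes were higher at 18 of 25, with a median of 0.10 (0.13 after quantile normalization). These genes respond within minutes to growth factors, stretch or injury. Atf3, a stress-induced transcription factor, read 55.5, 84, 105 and 121, a difference of 1.12, with Hom highest. Fos, a subunit of the AP-1 factor, read 191, 235, 435 and 318, a difference of 0.74. Gadd45g was at 0.68. Socs3, a feedback inhibitor of cytokine signalling, was at 1.01 by 1 probe set and -0.01 by the other. Jun, the partner of Fos, was lower by both of its probe sets (-0.27 and -0.56).

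Stress defence genes differed one by one rather than as lists. In the metallothionein and antioxidant list (25 read, median -0.02) Mt1, a metal-binding protein, read 260, 228, 196 and 126, a difference of -1.05. Gsta4, a glutathione transferase, read 277, 162, 346 and 135, a difference of -1.04, and the secreted peroxidase Gpx3 read 374, 207, 306 and 195, a difference of -0.94. Hom was the lowest array at these 3 genes, each read by 1 probe set. Heat shock genes were lower at 17 of 26, with a median of -0.11 (-0.02 after quantile normalization). They ranged from Hspa2 (-0.77) and Hspa1a (-0.66) to Hspb1 and its partner Bag3 (0.81).

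The muscle lists had small medians, which were higher after quantile normalization. The sarcomere list was higher at 15 of 28 with a median of 0.02, and at 20 of 28 with a median of 0.13 after quantile normalization. Ttn, the giant spring protein titin, was higher by both probe sets (0.61 and 0.34), and Myl4, the atrial essential light chain, was lowest at 1916, 1418, 1818 and 1138, a difference of -0.75. The natriuretic peptide and conduction list was higher at 14 of 22 with a median of 0.10, and at 16 of 22 with a median of 0.15 after quantile normalization. In it Nppb, the ventricular stretch-responsive peptide, read 377, 806, 274 and 602, a difference of 0.67. Kcnq1, a potassium channel of cardiac repolarization, read 37.1, 68.3, 54.5 and 98 and was 2.64-fold higher, with Hom highest. The sodium pump subunit Atp1b2, dim in WT at 36.7, was at 1.19. In the smooth muscle list (13 read, median 0.03) Actg2, dim in WT at 36.1, was at 1.10. Myl9, the regulatory light chain, was at -0.60.

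Endothelial markers had a median of -0.02, with 13 of 27 higher. Tie1, an endothelial receptor kinase, read 257, 222, 80.6 and 136, a difference of -0.91, and Fli1, an ETS transcription factor, read 125, 61.2, 97.6 and 63.6, a difference of -0.97. Plvap, a protein of endothelial diaphragms, read 649, 1054, 973 and 949, a difference of 0.55, with WT lowest. Platelet markers were higher at 8 of 13, with a median of 0.21. The highest differences were at Clec1b (0.97), which read 23.4, 135.5, 362.5 and 45.8, and Gp9 (0.95), which read 38.3, 40.1, 216.1 and 74. Both were dim in WT, where Clec1b was close to the floor, and Het replicate 2 was the highest array at both. They passed the level filter through Het values. Pf4, a chemokine of platelet granules, was at -0.46.

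Glycolysis and hypoxia genes were higher at 21 of 27, with a median of 0.14 (0.16 after quantile normalization). The members past 1.5-fold were Slc2a4, the insulin-responsive glucose transporter (0.87), Vegfb (0.67) and, below WT, Vegfa. Cytosolic ribosomal protein genes, a list of bright probe sets with a geometric mean of 2319 in WT, were lower at 35 of 45, with a median of -0.16, but after quantile normalization 28 were higher and the median was 0.02. Oxidative phosphorylation subunits were higher at 34 of 78 with a median of -0.03, and at 52 with a median of 0.06 after quantile normalization.

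The genes furthest apart by size alone rested largely on single probe sets. Nkain1 read 91.8 in Hom and did not exceed the floor in WT, at least 4.84-fold higher in Hom. Smim27 was at the floor in Hom and read 74.7 in WT, at least 3.94-fold lower. R3hcc1, which read 194, 77.2, 111 and 46.9, had the lowest difference (-2.05). Nup50, a nucleoporin, was at 1.99 by its brightest probe set, which read 20.8 in WT, close to the floor. Its other probe set was at 0.21. Tox4 was at -1.50 by its brightest probe set and -0.05 by the other. Among bright genes, Tcl1b3 (1426, 909, 690 and 546) was the lowest at -1.39. It was read by 1 probe set, also of a type that may cross-hybridise. Api5 was at -1.21 by a probe set of the type that may cross-hybridise and at 0.11 by its other. Wtap, a subunit of the RNA methylation complex, was lower by both (-0.95 and -0.15).

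The Het arrays, which entered the centring and the level filter but not the difference, lay unevenly around it. Of the 32 genes at least 2-fold higher in Hom, both Het arrays were nearer Hom than WT at 20 and nearer WT at 3. Of the 34 genes at least 2-fold lower, they were nearer Hom at 6 and nearer WT at 13. Over all genes read, each class held 26.4%. These positions use the same WT and Hom values that chose the genes. The level filter also used the Het values, so a gene dim in WT or in Hom passed more readily when the Het arrays read high. That favours Het arrays nearer Hom among the higher genes and nearer WT among the lower ones. Its part in these counts was not tested, so the share over all genes is not a baseline for them. Among the higher genes with both Het arrays nearer Hom were Ccl2, H2-Ab1, Atf3 and Nkain1, whereas Col12a1 and Nek2, a mitotic kinase (47.3, 62.1, 51.9 and 107), had both nearer WT.

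Sex-linked and reference genes differed between the arrays as well. Xist, the noncoding RNA of the inactive X chromosome, read 889, 860, 1069 and 564 by its brighter probe set and 422, 347, 478 and 173 by the other, differences of -0.66 and -1.29. Eif2s3y, a gene of the Y chromosome, read 93.2, 115, 130 and 155, a difference of 0.73. Both lay above the floor on all 4 arrays, with Hom the lowest for Xist and the highest for Eif2s3y. The other sex-linked genes read were Kdm6a (-0.46 and -0.22 by its probe sets), Eif2s3x (0.08 and 0.14) and Ddx3x (-0.11 by its brightest). The part of sex in the values above was not tested. By their brightest probe sets, reference genes ranged from -0.31 for Hprt to 0.23 for Tfrc, with B2m at 0.075. Actb, a bright gene, was at -0.30, and at -0.007 after quantile normalization. Tbp (-0.30), Gusb (-0.17), Ywhaz (-0.08), Pgk1 (0.15) and Sdha (0.16) made up the rest. The probe sets of Ywhaz ranged from -1.06 to 0.26.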

How the data were processed

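Mouse mitral valve RNA was measured on 4 single-colour arrays, 1 WT, 2 Het and 1 Hom, grouped by their labels. The deposited values are intensities on a linear scale, 1 per probe set. The software behind them is not given in the sources used here. Each array has a mean near 149.99 after 2% was left out at each end, and medians of 54 to 65.5.

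Values were converted to log2, centred on the mean of the array medians and floored at the 25th percentile. Probe sets whose mean log2 value reached the 50th percentile were kept. The filter was first run on the arithmetic mean of the 4 intensities. It was changed after those counts were seen, to match earlier processing of these arrays, and both are reported. The annotation gave 1 gene for 20393 probe sets, several for 691 and none for 1606, and 20364 identifiers matched the RefSeq table.

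Named genes were, among genes with at least 2 probe sets of 1 sign, the 12 highest and 12 lowest by the probe set nearest 0. Added to these were the 8 highest and 8 lowest of the genes in the top 25% by level, the 10 highest and 10 lowest of all, and in each of 45 lists the 2 highest, the 2 lowest and any member past 1.5-fold. Elastic fibre, sex-linked and reference genes were taken whatever their values. Some genes taken by the other rules are not printed in the text. The members and lists were chosen with earlier results of these data known. The oxidative phosphorylation list was trimmed of assembly factors, and the intensity limits of 500 and 4000, the size classes of probe set pairs, the classes of Het position and the promoter string were chosen, after values were seen.

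No test was run, since WT and Hom are 1 array each. The calculations were tested on simulated data. Alternatives were other scalings, floors, filters, probe set choices and leaving out each Het array. Python 3.11.15, pandas 2.3.3, numpy 2.4.6 and matplotlib 3.10.9 were used.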

Additional observations from a re-analysis of the deposited data

Results flagged for a closer look

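Probe sets with several genes or none named stood outside the comparison. Of the 917 that passed the level filter, 4 were at least 2-fold higher in Hom than in WT and 7 at least 2-fold lower. The highest difference was 2.56, at a probe set with no gene named that was at the floor in WT and read 52.4, 305 and 112 in Het replicate 1, Het replicate 2 and Hom, so that it is a lower bound.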

How the results depend on the processing

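WT and Hom are 1 array each, so no setting measures the spread between animals. No paired analysis was possible because WT and Hom hold 1 array each and carry no replicate number in the labels. Without a level filter, 180 genes were higher in Hom by 2-fold or more and 185 lower, 763 and 719 passed 1.5-fold, 32 genes had all probe sets at least 1.5-fold apart in 1 direction, and 28.3% had probe sets of 1 sign. That share is low partly by construction, since equal values at the floor count as not agreeing. With the filter at the 75th percentile these values were 5 and 10, 60 and 76, 4, and 52.5%. With the floor at the median, 15 genes were 2-fold higher. With the filter on the arithmetic mean, the setting run first, 41 genes were 2-fold higher and 37 lower, 256 and 246 passed 1.5-fold, 12 had all probe sets past it, and 47.1% were of 1 sign. Leaving out either Het array gave 27 to 31 and 33 to 35 genes at 2-fold. After quantile normalization 11 of 45 list medians had the other sign. Of medians at least 0.1 from 0, signs turned for the insulin-like growth factor (0.002), tendon (0.022) and ribosomal protein (0.021) lists under that scaling and for the tendon list (0.038) with the filter at the 75th percentile. Without probe sets that can bind several transcripts, Api5 read 0.111, Samhd1 -0.141 and Mcm2 -0.011. The cause was not tested. The alternatives in scaling, floor, filter, probe sets and Het arrays gave 467 list medians and 2297 values of named genes. Of these, 416 medians moved by no more than the SD of the Het pair at that list's median. The same held for 2202 gene values against the SD at that gene. The turned values just given are not counted in either. This yardstick is wide where the 2 Het arrays lay far apart.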

Other observations

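Retinoic acid genes, which pattern the embryonic heart, were read at 11 of 19, with a median of -0.04. Aldh1a3, an enzyme of retinoic acid synthesis, read 27.9, 57, 148 and 65.6 (difference 1.23), and the receptor Rarb read 62.7, 59.4, 66.3 and 100.2 (0.68), while Rdh5 was at -0.63 and the degrading enzyme Cyp26a1 at -0.49. Aldh1a3 was dim in WT and passed the level filter through its Het values. Valve and cardiac transcription factors had a median of -0.02 over 29 genes, with none past 1.5-fold. Mef2a was lower by its 4 probe sets, between -0.45 and -0.13, and Snai1, a factor of mesenchymal transition, was highest at 0.55.

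Neural and Schwann cell markers had the lowest median of the lists, -0.22 over 13 genes, of which 8 were lower and 5 higher. The adhesion molecule Ncam1 was at 320, 290, 340 and 198 (-0.69) and S100b at -0.59. Th, the enzyme of catecholamine synthesis, was at 0.62, and Cnp was higher by both of its probe sets (0.40 and 0.05). Melanocyte markers, which belong to a cell type known in mouse valves, were higher at 8 of 11 with a median of 0.14, led by Rab38 (0.71) and Gpnmb (0.49). DNA replication and mitosis genes were higher at 20 of 41, with a median of -0.01. Besides Nek2, Mcm2, a helicase subunit, was past 1.5-fold at 0.61, with its other probe set at -0.01. Adhesion and cytoskeleton genes were lower at 15 of 21, with a median of -0.10, and Parva, a partner of integrin-linked kinase, was lowest (-0.74, with its other probe set at -0.08).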
